A study of Mus musculus with 4 samples.

Results

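The genes described here are 34 named components of protein folding in the endoplasmic reticulum (ER) and of the unfolded protein response, followed in whole mouse hearts with and without the microRNA miR-1. They comprise 11 chaperones and cochaperones of the ER lumen, 6 genes of disulfide bond formation, 6 stress sensors and transcription factors, 7 genes of ER-associated degradation and 4 targets of the transcription factors ATF4 and CHOP. They were chosen by name with earlier results of these data known, so their values beside all genes describe the set only. All 34 had a row in both deposited tables, each of which holds 22552 gene rows. Of the 34, 30 reached 1 FPKM (fragments counted per kilobase of a transcript, scaled to 1000000 of them) in at least 1 library and were counted. The other 4 stayed below it everywhere, with highest values of 0.712 for Ero1lb, 0.705 for Trib3, 0.381 for Derl3 and 0.200 for Chac1, whereas the lowest gene inside the limit, Asns, reached 4.09.

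Polyadenylated RNA of hearts from mice labelled as strain Sv129 was sequenced at postnatal day 2.5 (P2.5) and embryonic day 15.5 (E15.5). At each stage 1 library came from a heart sample without miR-1-1 and miR-1-2 (dKO) and 1 from a control labelled dHET, described as a littermate for the P2.5 pair. The column of the E15.5 control is headed WT in the deposited table, and it was read as the dHET library because that is the one control sample of the stage. The sources used here do not give how the alleles were made, whether a library holds 1 heart or several, or the sex of the animals. With 1 library per group no difference below has a replicate check, and every comparison is between 2 libraries.

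The ER is where secreted and membrane proteins fold. When unfolded proteins accumulate there, the sensors IRE1 (encoded by Ern1), PERK (Eif2ak3) and ATF6 signal to the nucleus through the transcription factors XBP1, ATF4 and the cleaved form of ATF6, which raise the genes of chaperones, disulfide isomerases and the machinery that returns misfolded proteins to the cytosol for degradation. In heart muscle the ER is continuous with the sarcoplasmic reticulum, the calcium store of contraction, and several of its chaperones also bind calcium.

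The element through which ATF6 and XBP1 act on many chaperone genes, the ER stress response element (ERSE), is shown first because it is a feature that many of these promoters share. It was searched as CCAAT and CCACG separated by 9 further bases, on both strands from 250 bases before to 50 bases after each gene's start in RefSeq promoter windows of build GRCm38.p6. A window was found for 30 of the 34 genes, and 10 of them (33.3%) held the exact element. Of all 27025 genes with a window 37 held it (0.137%), these 10 among them. The matches of the counted genes and of Ero1lb and Derl3 follow, written along the strand on which they read, with the fixed letters in capitals.
Hspa5 (chr2:34772025-34772043, plus strand): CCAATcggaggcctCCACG
Hsp90b1 (chr10:86705638-86705656, minus strand): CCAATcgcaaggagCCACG
Hsp90b1 (chr10:86705533-86705551, plus strand): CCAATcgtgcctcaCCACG
Calr (chr8:84847075-84847093, plus strand): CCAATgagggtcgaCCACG
Canx (chr11:50325800-50325818, minus strand): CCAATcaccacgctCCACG
Dnajc3 (chr14:118937827-118937845, plus strand): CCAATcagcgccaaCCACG
Creld2 (chr15:88819520-88819538, minus strand): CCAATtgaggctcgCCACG
Pdia6 (chr12:17266491-17266509, plus strand): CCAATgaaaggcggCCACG
Syvn1 (chr19:6046532-6046550, plus strand): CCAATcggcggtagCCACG
Ero1lb (chr13:12565682-12565700, minus strand): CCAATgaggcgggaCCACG
Derl3 (chr10:75893242-75893260, minus strand): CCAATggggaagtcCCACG
Hsp90b1 was the one gene of the set with a pair of exact matches, on opposite strands. The window of Hspa5 (chr2:34771840-34772139, plus strand) is given in full as the promoter of the best known target of this response, with the exact match in capitals.
Hspa5 promoter: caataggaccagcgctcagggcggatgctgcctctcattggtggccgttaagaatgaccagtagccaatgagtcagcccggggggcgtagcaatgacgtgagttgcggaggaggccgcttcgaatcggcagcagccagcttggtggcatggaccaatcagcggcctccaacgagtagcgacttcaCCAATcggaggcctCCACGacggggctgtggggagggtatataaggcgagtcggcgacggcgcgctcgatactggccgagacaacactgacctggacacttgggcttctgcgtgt

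Other elements of the response were sought in the same windows. The shorter ERSE-II, ATTGG and CCACG separated by 1 base, was found at Dnajb11 and Herpud1, among 12 genes in all (0.0444%). The sequence TGATGNAAN, a relaxed form of the element that binds ATF4 with its partners, was found at Herpud1, Asns, Trib3 and Chac1 (13.3%). Of all genes with a window 4.50% held it. The XBP1 element TGACGTGG was in none of the 30 genes with a window and in 0.714% of all such genes. These matches describe letters in a window of 300 bases and say nothing of binding.
Dnajb11 (chr16:22857852-22857862, plus strand): ATTGGcCCACG
Herpud1 (chr8:94386377-94386387, plus strand): ATTGGgCCACG

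The second sequence of interest is the one that the deleted microRNA itself reads. The match to the seed of miR-1, ACATTCC, was sought in the longest annotated 3′ UTR of each gene (GENCODE release M1, build NCBIM37, the assembly of mm9). It was present in 4 of the 30 counted genes (13.3%), against 1289 of the 11695 counted genes of all kinds that have an annotated 3′ UTR (11.02%). The sites of these genes, and that of Derl3, follow with the seed match in capitals, and the coordinates are those of the match.
Hsp90b1 (chr10:86153669-86153675, minus strand): gttgaattttttttaACATTCCt
Dnajc3 (chr14:119378404-119378410, plus strand): gcacttcctcctgagACATTCCc
Dnajc3 (chr14:119379678-119379684, plus strand): tgcagagccacttccACATTCCA
Ero1l (chr14:45905080-45905086, minus strand): atacactggtatgaaACATTCCt
Eif2ak3 (chr6:70855027-70855033, plus strand): atactacaagtgggtACATTCCc
Derl3 (chr10:75358531-75358537, plus strand): ggaggtagatctgggACATTCCt
Dnajc3 had 2 matches, and its second is the one followed by A, drawn as a capital too, which is the form known as the strongest pairing.

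Some facts of the libraries bear on the values below. The targeted genes Mir1a-1 and Mir1a-2 were listed at 0 in all 4 libraries, which checks no label because polyadenylated RNA need not hold such short hairpins. Heart muscle markers were abundant in every library, with summed FPKM from 10547 to 24232 over 7 genes. At P2.5 the X-linked Xist was at 0.101 FPKM (dHET) against 50.7 (dKO), and Eif2s3y, from the Y chromosome, was at 36.1 and 0.0113, so that in this pair genotype and sex cannot be told apart. At E15.5 both libraries held Eif2s3y, at 28.6 and 25.1 FPKM. At P2.5 the 7 smooth muscle and mural markers summed to 787 FPKM (dHET) against 1857 (dKO), most of it Acta2, at 658 and 1692 FPKM. Of the 7, 5 lay above 0 and Rgs5 (-0.17) and Tagln (-0.09) below, and Pdgfrb turned to -0.14 after rescaling. At E15.5 the same markers summed to 889 and 1413 FPKM with 3 of 7 above 0. Of 9 fibroblast markers 3 lay above 0 at P2.5 and 6 below, with sums of 1472 and 1526. Heart muscle markers at that stage summed to 18549 and 24232 FPKM, with 5 of 7 above 0 and Myh7 (-0.36) and Ryr2 (-0.01) below. Plasma cells and B cells, which are rich in ER chaperones, left little trace, since their 6 markers summed to between 0.918 and 1.99 FPKM and Ms4a1 was listed at 0 in both E15.5 libraries. The part of these differences in the results was not tested, and in whole hearts fewer cells of a type and less RNA per cell cannot be told apart.

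Changes are given as log2((FPKM dKO + 1)/(FPKM dHET + 1)), positive where dKO is higher, and this scale understates changes of low genes. In the P2.5 pair the median change of the 30 counted genes was 0.18, against 0.062 for all 12124 counted genes. Of the 30, 24 lay above 0, against 60.2% of all counted genes, and 6 lay below, against 39.7%. At least 1.5-fold higher in dKO were 2 genes, Hsp90b1 and Creld2, where the background was 3.3% of all genes. Neither passed 1.5-fold after each library was rescaled to the same sum over the counted genes, at 0.46 and 0.49, or after centring on the median of all genes, at 0.57 and 0.56. None (0 of 30) was 1.5-fold lower, against 1.29%. At a fold of 1.2 the dKO library was higher for 12 genes (21.4% of all genes) and lower for 1, Dnajb9 (9.77%). The summed level of the 30 genes was 975 FPKM (dHET) against 1212 (dKO). The counts depend on the scaling of the libraries. The rescaling was to a sum of 1000000 with the pseudocount of 1 added afterwards, so it also lowers the weight of the pseudocount. Its counts past a fold therefore mix both effects. After the same rescaling the median of all genes shifted by -0.16, to -0.093, and that of the 30 genes became 0.041, with 15 of 30 above 0 against 36.6% of all genes. The distance between the 2 medians was 0.12 as first computed and 0.13 after rescaling. For all genes, the split at 1.5-fold was 400 higher and 157 lower as computed, 299 and 621 after rescaling, and 283 and 232 after centring on the median of all genes. With a pseudocount of 0.1 and no rescaling it was 692 and 334.

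At E15.5 the same genes lay close to 0. Their median change was 0.0092, against -0.0074 for all 12116 counted genes, with 16 of 30 above 0, against 47.8%, and 14 below, against 52.2%. None passed 1.5-fold in either direction (0 higher against 0.479% of all genes, 0 lower against 0.71%). None passed 1.2-fold either (0 higher against 5.15%, 0 lower against 4.37%). The sums of the 30 genes were 1437 FPKM (dHET) against 1461 (dKO).

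**Figure D1:**
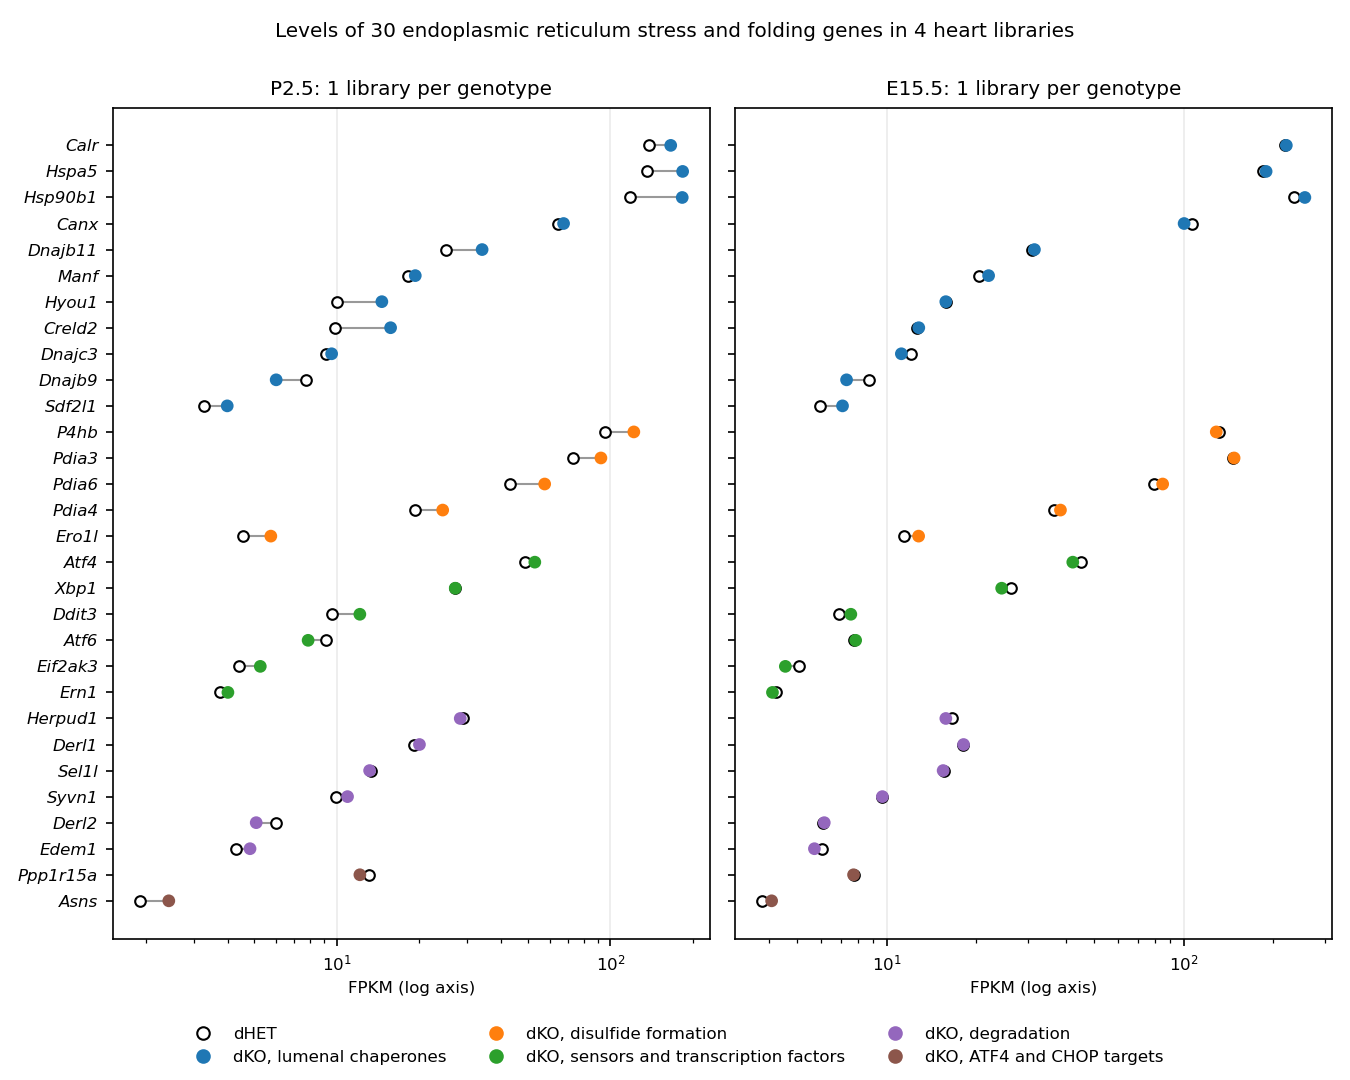
Levels of the 30 counted genes in FPKM on a log axis, with the dHET library as an open circle and the dKO library as a filled circle coloured by role, P2.5 left and E15.5 right, 1 library per point. At P2.5 the filled circles of the chaperones and disulfide enzymes sit mostly to the right of the open ones (Hspa5 136 and 184 FPKM; Canx, Dnajc3 and Manf turn to the left after rescaling), while at E15.5 most pairs nearly coincide (185 and 189).

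The chaperones of the lumen held the largest values and the largest changes of the set. At P2.5 their median change was 0.27, with 10 of 11 above 0. After rescaling 7 of 11 lay above 0, against 36.6% of all genes, and Canx, Dnajc3 and Manf fell below 0. At E15.5 their median was 0.019, with 7 of 11 above 0. Their summed level was 540 FPKM (dHET) against 704 (dKO) at P2.5, with 853 and 875 at E15.5.

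Hspa5 (chromosome 2, 34627610 to 34632049, mm9) encodes BiP, the HSP70 chaperone of the ER that also holds the stress sensors inactive. It had 136 FPKM in the P2.5 dHET library and 184 in dKO, a log2 change of 0.43, and 185 and 189 at E15.5, a change of 0.03. Hsp90b1 (chromosome 10, 86153586 to 86168189) encodes GRP94, the HSP90 of the ER. Its level was 118 FPKM (dHET) against 183 (dKO) at P2.5, with 235 and 256 at E15.5. The changes were 0.63 at P2.5 and 0.12 at E15.5. An antisense noncoding gene, 1810014B01Rik, covers 10.3% of the exonic bases of Hsp90b1, and the sources used here do not give the strand setting of the authors' counting.

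Hyou1 (chromosome 9, 44187573 to 44200452) encodes GRP170, which releases ADP from BiP. It was at 10.01 FPKM (dHET) against 14.6 (dKO) at P2.5, a change of 0.50. At E15.5 it was at 15.9 and 15.8 FPKM, a change of -0.0068. Creld2 (chromosome 15, 88650076 to 88657111), an ER protein induced by stress, was the second gene past 1.5-fold. It measured 9.86 FPKM (dHET) against 15.7 (dKO) at P2.5, a change of 0.62. At E15.5 its libraries read 12.6 and 12.8, a change of 0.02. Both genes thus differed in the P2.5 pair and were nearly level in the E15.5 pair.

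Of the cochaperones that drive the ATPase of BiP, Dnajb11 and Dnajb9 differed in opposite directions. Dnajb11 measured 25.1 FPKM (dHET) against 34.0 (dKO) at P2.5, a change of 0.42, and 30.8 and 31.4 at E15.5, a change of 0.03. Dnajb9, which also holds IRE1 inactive through BiP, had 7.72 (dHET) against 6.005 (dKO) at P2.5, a change of -0.32. At E15.5 it had 8.68 and 7.32, a change of -0.22. Of its transcript, however, 53.3% matches a copy on the X chromosome at 97.5% identity, so that its values are uncertain. Dnajc3, which encodes p58IPK, was at 9.16 and 9.58 FPKM at P2.5, a change of 0.06, and at 12.1 and 11.2 at E15.5, a change of -0.10.

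Calreticulin and calnexin hold newly made glycoproteins until they are folded. Calr measured 138 FPKM (dHET) against 166 (dKO) at P2.5, a change of 0.27, and 219 and 222 at E15.5, a change of 0.02. Canx had 64.6 and 67.4 at P2.5, a change of 0.06, and 107 and 100.3 at E15.5, a change of -0.09. Both P2.5 changes were smaller than the standard error implied by the deposited statistics, which is given after the values. Manf, a secreted stress-induced factor, had 18.1 and 19.4 FPKM at P2.5, with 20.4 and 22.02 at E15.5, changes of 0.09 and 0.10, and 14.1% of its transcript matches a copy on chromosome 8. Sdf2l1, a partner of Dnajb11, had 3.26 and 3.98 at P2.5, with 5.96 and 7.09 at E15.5, changes of 0.23 and 0.22.

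The changes of the disulfide enzymes lay within a narrow range. All 5 counted genes lay above 0 at P2.5, between 0.28 and 0.41 with a median of 0.33, and all 5 stayed above 0 after rescaling, with a median of 0.16. At E15.5 the 5 lay between -0.03 and 0.15, with a median of 0.065. Their summed level was 236 FPKM (dHET) against 302 (dKO) at P2.5, with 406 and 413 at E15.5.

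P4hb, the classical protein disulfide isomerase and a subunit of collagen prolyl hydroxylase, measured 95.7 FPKM (dHET) against 122 (dKO) at P2.5, a change of 0.34. Pdia3, the isomerase that works with calreticulin and calnexin, had 73.2 and 92.4 FPKM, a change of 0.33. Pdia6, an isomerase that works with BiP, had 43.1 and 57.5, a change of 0.41. The P2.5 changes of these 3 genes were similar in size over a range of levels. After rescaling they were 0.17 for P4hb, 0.16 for Pdia3 and 0.24 for Pdia6, none past 1.2-fold. The interval implied by the deposited statistics, given after the values, included 0 for each of them. Pdia4 had 19.4 and 24.4 FPKM, a change of 0.32. Ero1l, the oxidase that recharges the isomerases, had 4.54 and 5.74, a change of 0.28, but 55.4% of its transcript matches a copy on chromosome 7 at 99.7% identity. At E15.5 the values of dHET and dKO were 131 and 129 FPKM for P4hb, 147 and 148 for Pdia3, 79.5 and 84.9 for Pdia6, 36.7 and 38.4 for Pdia4 and 11.4 and 12.8 for Ero1l. Ero1lb, the second oxidase, stayed below 1 FPKM.

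The sensors and their transcription factors had a median nearer to 0 than that of the chaperones at P2.5. Their median change was 0.093 at P2.5, with 5 of 6 above 0, and -0.059 at E15.5, with 2 of 6 above 0. After rescaling the P2.5 median was -0.067 with 2 of 6 above 0, against -0.093 and 36.6% for all genes. Ern1 measured 3.76 FPKM (dHET) against 4.001 (dKO) at P2.5, a change of 0.07, and 4.24 and 4.12 at E15.5, a change of -0.03. Eif2ak3 had 4.38 and 5.25 at P2.5, a change of 0.22, and 5.05 and 4.55 at E15.5, a change of -0.12. Atf6 had 9.15 and 7.86 at P2.5, a change of -0.20, and 7.75 and 7.85 at E15.5, a change of 0.02. No sensor reached 1.2-fold in either direction as computed. After rescaling Atf6 was past 1.2-fold lower at P2.5, at -0.38, as were 26.7% of all genes.

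Xbp1, whose messenger RNA is spliced by IRE1, measured 27.0 FPKM (dHET) against 27.1 (dKO) at P2.5, a change of 0.0073, and 26.2 and 24.4 at E15.5, a change of -0.10. The deposited values are per gene and do not separate its spliced from its unspliced form. Atf4, which is controlled mainly through translation, had 48.8 and 52.9 at P2.5, a change of 0.11, and 45.0 and 42.3 at E15.5, a change of -0.09. After rescaling the P2.5 changes of Ern1, Xbp1 and Atf4 turned below 0. Ddit3, which encodes CHOP, the factor linked to cell death under lasting stress, had 9.63 and 12.1 FPKM at P2.5, a change of 0.31. At E15.5 it had 6.88 and 7.57, a change of 0.12. It is also the gene with the widest error of the 30.

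The genes of ER-associated degradation stayed near 0. Their median change was 0.027 at P2.5, with 3 of 6 above 0, and -0.0076 at E15.5, with 2 of 6 above 0. After rescaling the P2.5 median was -0.14 with 0 of 6 above 0, against -0.093 and 36.6% for all genes. Herpud1, a stress-induced scaffold of the degradation complex, measured 29.0 FPKM (dHET) against 28.3 (dKO) at P2.5, a change of -0.04, and 16.6 and 15.8 at E15.5, a change of -0.07. Sel1l and Syvn1, the adaptor and the ubiquitin ligase of that complex, had changes of -0.01 and 0.13 at P2.5 and of -0.01 and -0.0013 at E15.5. Sel1l had 13.3 and 13.2 FPKM at P2.5, with 15.6 and 15.5 at E15.5, and Syvn1 had 9.95 and 10.9, and 9.67 and 9.66.

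Edem1, a lectin that hands over misfolded glycoproteins, had 4.28 and 4.82 FPKM at P2.5, a change of 0.14, and 6.04 and 5.71 at E15.5, a change of -0.07. Derl1 and Derl2 encode derlins, membrane proteins of the retrotranslocation channel. Derl1 had 19.1 and 20.1 FPKM at P2.5, a change of 0.07, and 18.03 and 18.1 at E15.5, but 66.7% of its transcript matches a copy on chromosome 12. Derl2 had 5.97 and 5.08 at P2.5, a change of -0.20, and 6.08 and 6.16 at E15.5, a change of 0.02. After rescaling Syvn1, Edem1 and Derl1 fell below 0 at P2.5. No degradation gene reached 1.2-fold in either direction as computed. After rescaling Derl2 was past 1.2-fold lower at P2.5, at -0.39, as were 26.7% of all genes.

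Among the targets of ATF4 and CHOP, 2 of 4 were counted. Asns, asparagine synthetase, measured 1.91 FPKM (dHET) against 2.43 (dKO) at P2.5, a change of 0.24, and 3.81 and 4.09 at E15.5, a change of 0.08. Ppp1r15a, which encodes GADD34 and restores translation by bringing a phosphatase to eIF2alpha, had 13.1 and 12.1 at P2.5, a change of -0.10, and 7.78 and 7.73 at E15.5, a change of -0.0090. After rescaling the P2.5 change of Ppp1r15a was -0.27, past 1.2-fold lower, as was that of Dnajb9 at -0.51. Of all genes 26.7% were past 1.2-fold lower in that setting. The kinase regulator Trib3 and the glutathione-degrading enzyme Chac1 stayed below 1 FPKM in all 4 libraries, as did the third derlin, Derl3.

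The authors' deposited table gives a measure of how well each pair of libraries resolves these differences. A standard error was computed from it as the deposited log2 fold change divided by the deposited test statistic, and it covers the authors' model of 2 libraries, not the spread between animals. Its median over the 30 genes was 0.30 in the P2.5 pair and 0.18 in the E15.5 pair. None of the genes (0 of 30) was significant in the authors' deposited table at either stage, against 0.429% of all counted genes in the P2.5 pair and 0.867% in the E15.5 pair. The lowest q-value of the 30 genes in the authors' deposited table was 0.971, for Creld2 at P2.5. Unadjusted p-values under 0.05 in the authors' deposited table belonged to 3 genes at P2.5, against 4.67% of all tested genes, and to 0 genes at E15.5, against 3.99%. The 3 genes were Creld2 (p = 0.0422), Hsp90b1 (p = 0.0444) and Hyou1 (p = 0.0483), all from the authors' deposited table. The interval of 95% computed from the authors' deposited table ran from 0.016 to 1.26 for Hsp90b1, from 0.024 to 1.32 for Creld2 and from 0.0040 to 1.09 for Hyou1. In the authors' deposited table the fold change exceeded its standard error for 11 genes at P2.5, of which 10 were higher chaperones and disulfide enzymes and 1 was Dnajb9, and for 1 gene, Dnajb9, at E15.5. Over all counted and tested genes of the authors' deposited table the same held, in either direction, for 26.2% in the P2.5 pair and for 20.9% in the E15.5 pair. For Hspa5 the same interval at P2.5, from the authors' deposited table, ran from -0.20 to 1.07, and at E15.5 from -0.34 to 0.40.

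**Figure D2:**
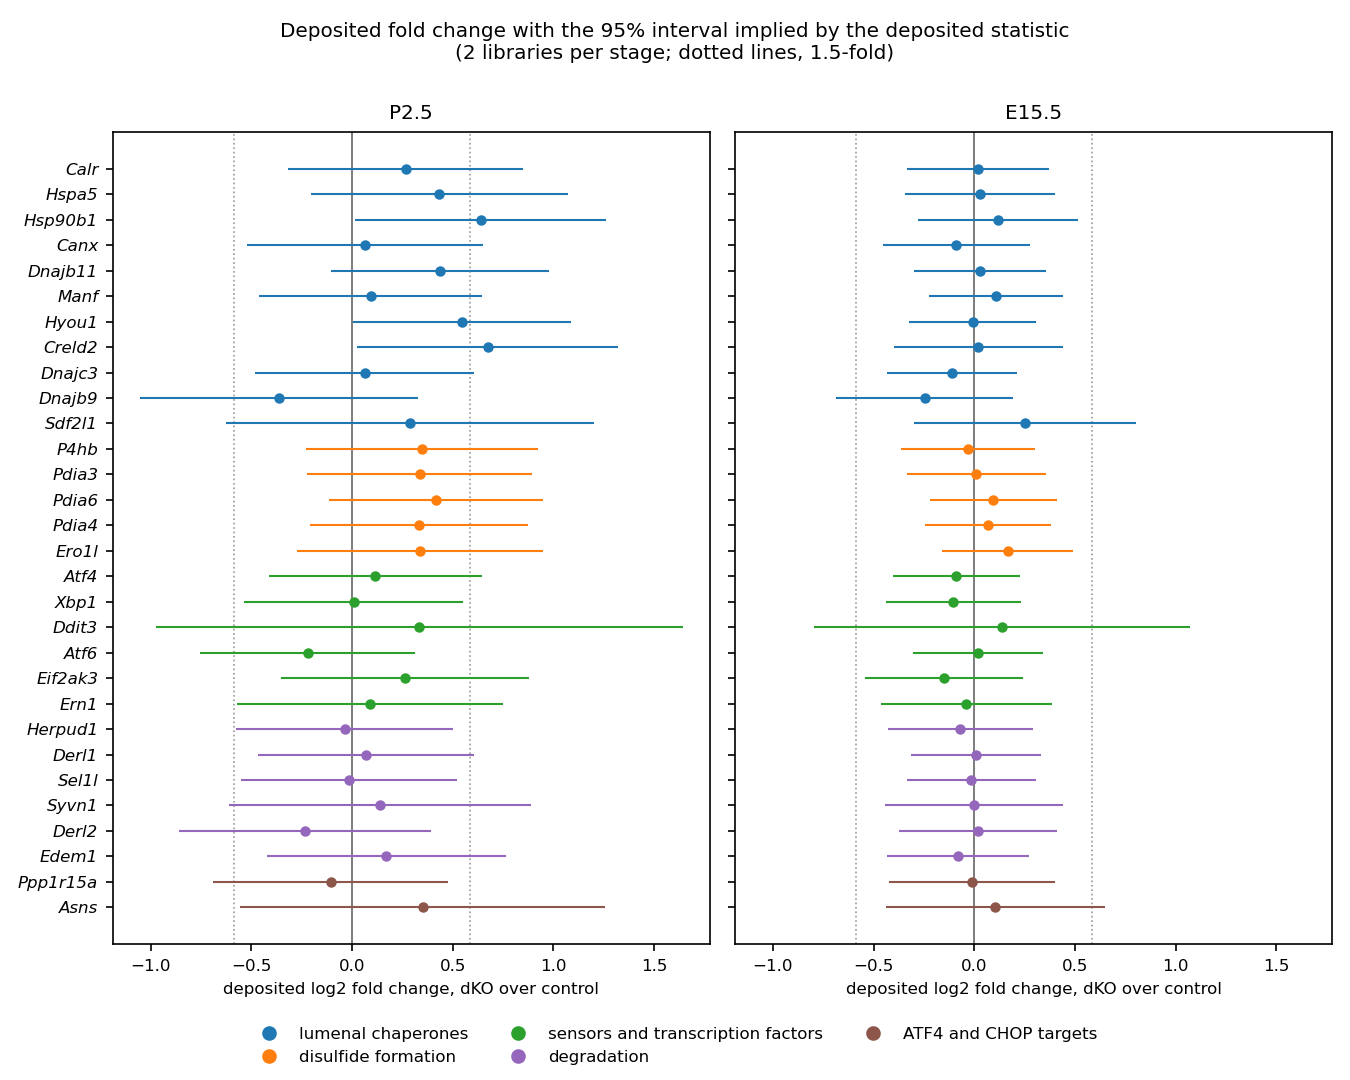
The log2 fold change of each counted gene from the authors' deposited table, dKO over control, with the interval of 95% implied by the deposited statistic as a bar, P2.5 left and E15.5 right, coloured by role, and 1.5-fold as dotted lines. The bars of Hsp90b1, Hyou1 and Creld2 at P2.5 lie just above 0, all other bars include 0, and Ddit3 has the longest bar at both stages.

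The spread of the 30 changes can be set beside that of all counted genes. At P2.5 the changes of the set ran from -0.32 to 0.63, and 21 of 30 were above the median of all genes. At E15.5 they ran from -0.22 to 0.22, and 18 of 30 were above it. The changes were larger in size at P2.5 than at E15.5 in 24 of the 30 genes, against 68.9% of the 12098 genes counted at both stages. In the P2.5 pair all genes were also spread more widely, since 21.4% were 1.2-fold higher there against 5.15% at E15.5.

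**Figure D3:**
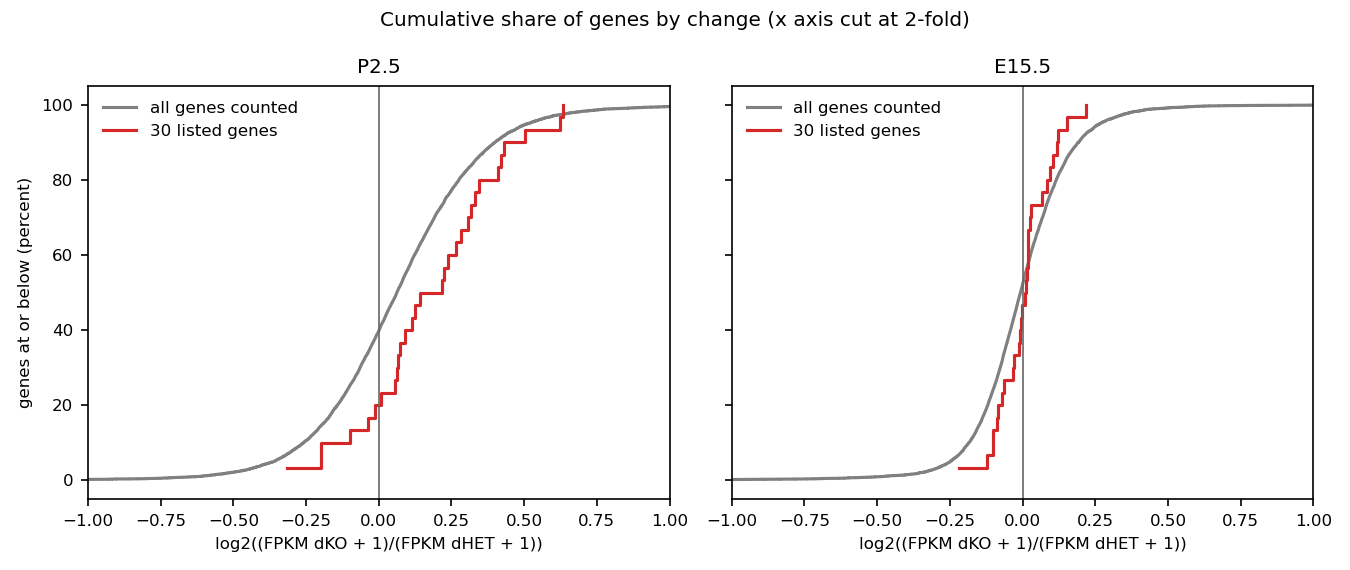
Cumulative share of genes, in percent, against the log2 change of dKO over dHET, for the 30 genes and for all counted genes, P2.5 left and E15.5 right, with the x axis limited to 2-fold. At P2.5 the curve of the 30 genes runs to the right of that of all genes (medians 0.18 and 0.062, a side-by-side distance of 0.12), and at E15.5 the curves run close together (0.0092 and -0.0074).

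The pairs of the 2 stages share no library, and set side by side they divide the genes by direction. Above 0 at both stages were 14 genes, Hspa5, Hsp90b1, Calr, Dnajb11, Sdf2l1, Manf, Creld2, Pdia3, Pdia4, Pdia6, Ero1l, Ddit3, Derl1 and Asns, although Manf and Derl1 fell below 0 at P2.5 after rescaling and Creld2 fell to -0.012 at E15.5 after adjustment for GC content and length. Below 0 at both were 4 genes, Dnajb9, Herpud1, Sel1l and Ppp1r15a, although Sel1l turned above 0 under that adjustment. Above 0 at P2.5 and below at E15.5 were 10, and the reverse held for Atf6 and Derl2. Of the 12098 genes counted at both stages, 35.4% lay above 0 at both, 27.3% below 0 at both, 24.9% above 0 at P2.5 only and 12.4% above 0 at E15.5 only. Over the 30 genes the changes of the 2 stages had a Pearson correlation of 0.49 and a Spearman correlation of 0.54, where all 12098 genes had 0.34 and 0.37, given as a description because genes are not independent replicates.

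The changes can also be split by level, as a description, since level and change come from the same libraries. The 12 genes with a mean of at least 20 FPKM over the 4 libraries had a P2.5 median of 0.32 and lay above 0 in 11 of 12 (Canx, Xbp1 and Atf4 fell below 0 after rescaling). The 18 genes below that level had a median of 0.11 and lay above 0 in 13 of 18, of which Dnajc3, Manf, Ern1, Syvn1, Edem1 and Derl1 fell below 0 after rescaling. Across the 30 genes the correlation of the P2.5 change with the level was 0.40 (Pearson) and 0.36 (Spearman), against 0.12 and 0.13 over all counted genes. Across the same genes the correlation of the change with transcript GC content was 0.26 and 0.19, against 0.34 and 0.39 over all genes. At E15.5 the 2 level classes had medians of 0.015 and 0.0031.

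Sequence classes can be set beside these values. The 8 counted genes with an ERSE in the promoter window had a P2.5 median of 0.34, from 0.06 to 0.63 and with all 8 above 0, although Canx, Dnajc3 and Syvn1 fell below 0 after rescaling. The 18 counted genes with a window and no exact ERSE had a median of 0.18, from -0.32 to 0.42, with 13 above 0. At E15.5 the medians were 0.019 and -0.011. Of these 8 genes 5 (Hspa5, Hsp90b1, Calr, Canx and Pdia6) had a mean of at least 20 FPKM, and Dnajc3, Creld2 and Syvn1 had less. The 4 genes with a miR-1 seed match had P2.5 changes of 0.63 (Hsp90b1), 0.28 (Ero1l), 0.22 (Eif2ak3) and 0.06 (Dnajc3), with a median of 0.25 against 0.13 in the 26 genes without one. At E15.5 their changes were 0.12, 0.15, -0.12 and -0.10 in the same order, and the medians were 0.0094 and 0.0092. Dnajc3, which has the site followed by A, had the smallest P2.5 change of these 4 genes.

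The other genes of the ER were followed in 7 further lists, with 142 counted genes in all. At P2.5, 4 of the 142 (2.82%, against 3.3% of all genes) were at least 1.5-fold higher and 0 lower, and at E15.5 0 were higher and 1 lower (0.704%, against 0.71%). After rescaling 2 were higher at P2.5, Fkbp2 and Sesn2, and 2 lower, Gpt2 and Tmx3, against 2.47% and 5.12% of all genes. For other chaperones and folding enzymes the median was 0.24 at P2.5, with 23 of 28 above 0 (0.083 and 17 of 28 after rescaling), and 0.027 at E15.5, with 17 of 28 above 0. In this list 2 genes were 1.5-fold higher at P2.5, both peptidyl-prolyl isomerases. Fkbp2 measured 16.7 FPKM (dHET) against 28.8 (dKO), a change of 0.75 (0.61 after rescaling). Ppib, which takes part in collagen folding, had 111 and 167, a change of 0.59, and was below 1.5-fold after rescaling, at 0.42. At E15.5 Fkbp2 had 14.3 and 15.7, and Ppib 95.5 and 120, changes of 0.12 and 0.33. The thioredoxin-like Tmx1 differed most at E15.5, with 20.2 and 27.5 FPKM, a change of 0.43, against -0.15 at P2.5.

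Collagens are a main load of these folding enzymes, and their values stand beside them as measured. Col1a1 measured 221 FPKM (dHET) against 309 (dKO) at P2.5, a change of 0.48, and 254 and 234 at E15.5, a change of -0.11. Col1a2 had 197 and 253 at P2.5, a change of 0.36, and 216 and 179 at E15.5, a change of -0.27. Col3a1 had 464 and 571 at P2.5, a change of 0.30, and 318 and 336 at E15.5, a change of 0.08. After rescaling the P2.5 changes were 0.31 for Col1a1, 0.19 for Col1a2 and 0.12 for Col3a1. Other fibroblast markers went the other way at P2.5, with Dcn at 187 and 122 FPKM and Lum at 44.7 and 26.7. Their part in the chaperone values was not tested.

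For N-glycosylation and glucose trimming the P2.5 median was 0.078, with 10 of 15 above 0 and 0 past 1.5-fold. After rescaling that median was -0.056, against -0.093 for all genes. The glucosidase subunit Prkcsh measured 23.7 FPKM (dHET) against 35.5 (dKO), a change of 0.57, and the oligosaccharyltransferase subunit Tusc3 had 24.8 and 36.8, a change of 0.55. Tusc3 was also the highest of the list at E15.5, with 38.0 and 49.5 FPKM, a change of 0.37. The list's median at E15.5 was -0.015. Genes of the translocon and signal peptide had medians of -0.0010 at P2.5, with 12 of 24 above 0, and -0.034 at E15.5. ER to Golgi transport was the list with the lowest P2.5 median, -0.12 with 6 of 19 above 0, and -0.066 at E15.5. In it the coat subunit Sec23a had 18.8 and 14.1 FPKM at P2.5, a change of -0.39. Mcfd2 of the same list went the other way and by more, with 12.9 and 17.9 FPKM, a change of 0.45. The lists for entry into the ER and exit from it thus lacked the positive medians of the folding lists.

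Other degradation genes had medians of 0.11 at P2.5, with 13 of 18 above 0, and -0.039 at E15.5. After rescaling the P2.5 median was -0.058, against -0.093 for all genes. The highest P2.5 change was 0.45 for Aup1, which recruits a ubiquitin-conjugating enzyme, with 25.5 FPKM (dHET) against 35.2 (dKO). Other stress transducers had a median of 0.23 at P2.5, with 7 of 8 above 0 (0.067 and 5 of 8 after rescaling), and 0.062 at E15.5. Wfs1, an ER membrane protein that restrains ATF6, had 9.60 and 13.7 FPKM at P2.5, a change of 0.47. Atf6b, the relative of ATF6, had 11.8 and 15.2, a change of 0.35, where Atf6 itself was at -0.20. The protease Mbtps2, which releases ATF6 from the membrane, had 3.22 and 2.33, a change of -0.34.

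Other genes of ATF4 and the integrated stress response had a median of 0.040 at P2.5, with 17 of 30 above 0. At E15.5 it was -0.043, with 12 of 30 above 0. After rescaling the P2.5 median was -0.12, against -0.093 for all genes. Past 1.5-fold at P2.5 were Gars, a transfer RNA synthetase, with 37.5 FPKM (dHET) against 61.9 (dKO), a change of 0.71, and Sesn2, an inhibitor of mTORC1, with 2.13 and 3.88, a change of 0.64. After rescaling Gars was below 1.5-fold, at 0.55, and Sesn2 stayed past it, at 0.63. At E15.5 the stress-induced Nupr1 had 4.08 and 1.41 FPKM, a change of -1.07. It was the 1 gene of the 7 lists past 1.5-fold at that stage as computed, and at P2.5 it had 1.40 and 1.79. Srp54a of the translocon list, at 0.65 and 0.22 FPKM at E15.5, went from -0.44 as computed to -0.98 after rescaling. The E15.5 libraries had nearly equal sums (229628 and 230628 FPKM), so that shift comes from the lower weight of the pseudocount.

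**Figure D4:**
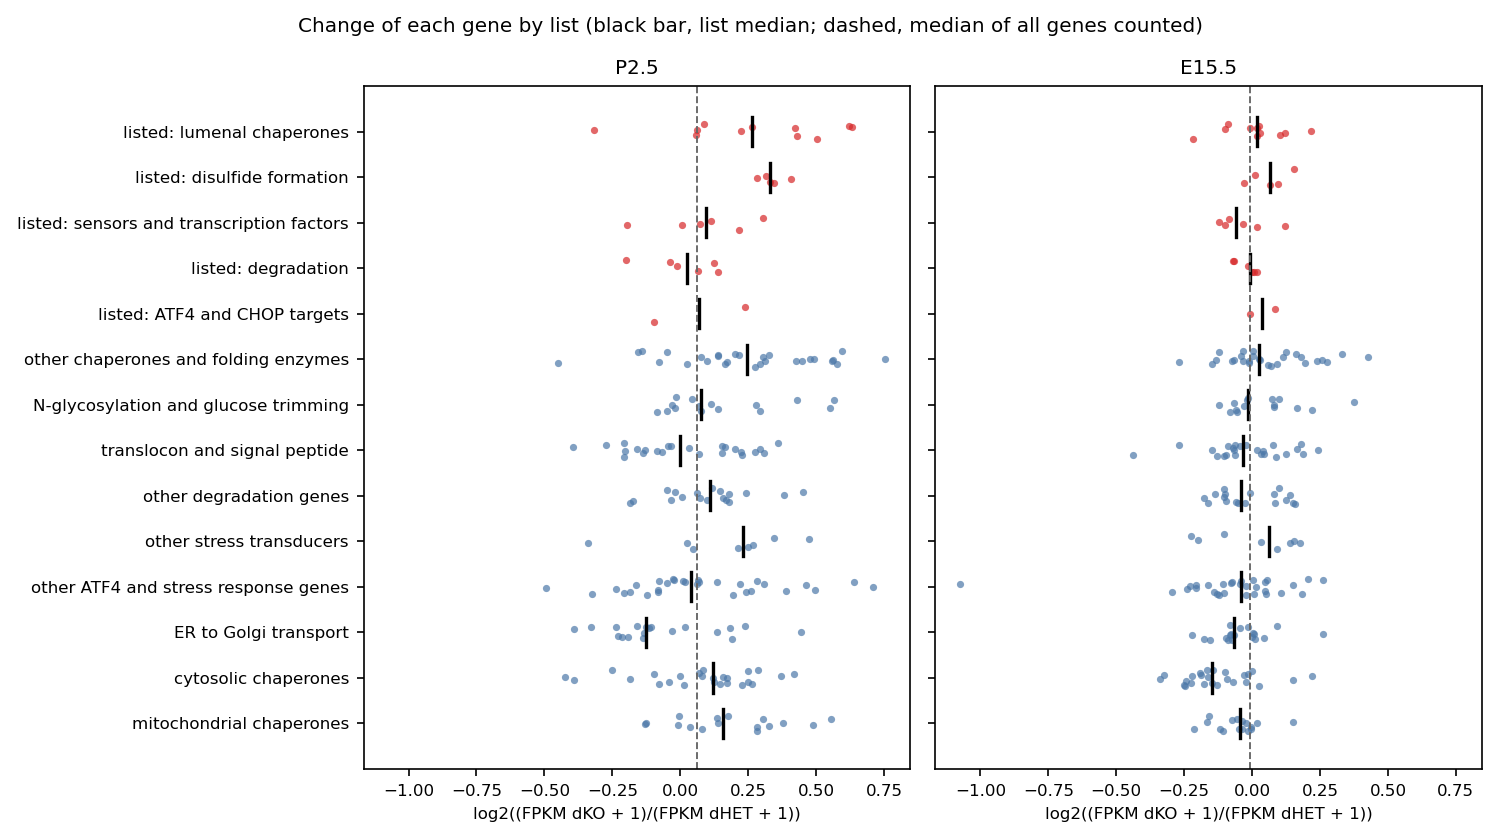
The log2 change of dKO over dHET for each gene (points) of the 5 roles of the named genes (red) and of the other lists (blue), with list medians as black bars and the median of all counted genes as a dashed line, P2.5 left and E15.5 right. At P2.5 the bars furthest right of the dashed line (0.062) are disulfide formation (0.33), lumenal chaperones (0.27), other chaperones (0.24) and other stress transducers (0.23). Also to its right are mitochondrial (0.16) and cytosolic chaperones (0.12), other degradation genes (0.11) and sensors and transcription factors (0.093). N-glycosylation (0.078) and the ATF4 and CHOP targets (0.071) lie just right of it. To its left are ER to Golgi transport (-0.12), the translocon list (-0.0010), the listed degradation genes (0.027) and the other ATF4 genes (0.040).

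The order of the genes within a library gives their place in the heart at each stage. In the P2.5 dHET library the highest were Calr (138 FPKM), Hspa5 (136), Hsp90b1 (118) and P4hb (95.7). The sum of the 5 disulfide genes and 11 lumenal chaperones made up most of the total of 975 FPKM, and the 6 degradation genes held 81.6 FPKM and the 6 sensors and transcription factors 103. Since the tables of the stages were scaled separately, stages were compared only by percentile, the share of counted genes with a lower FPKM in the same library. From P2.5 to E15.5 18 of 30 genes stood higher in both genotypes, 7 stood lower and 5 were mixed. Of the 12098 genes counted at both stages 46.2% stood higher in both genotypes, 39.1% lower and 14.8% were mixed.

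Ero1l showed the widest difference in percentile between stages, from 32.8 (P2.5) to 61.6 (E15.5) in dHET and from 38.3 to 66.1 in dKO. Pdia4 was at 77.98 and 90.6 in dHET, and Sdf2l1 at 24.6 and 38.5. The 7 genes that stood lower at E15.5 were Atf6, Atf4, Ddit3, Herpud1, Syvn1, Derl1 and Ppp1r15a. In dHET Ppp1r15a stood at 67.4 in the P2.5 library and at 47.8 in the E15.5 library, and in dKO at 63.2 and 47.6. Ddit3 was at 57.3 and 43.3 in dHET, and Herpud1 at 86.5 and 74.1. The E15.5 libraries were read from both ends and the P2.5 libraries from a single end, so stage and way of sequencing cannot be told apart.

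**Figure D5:**
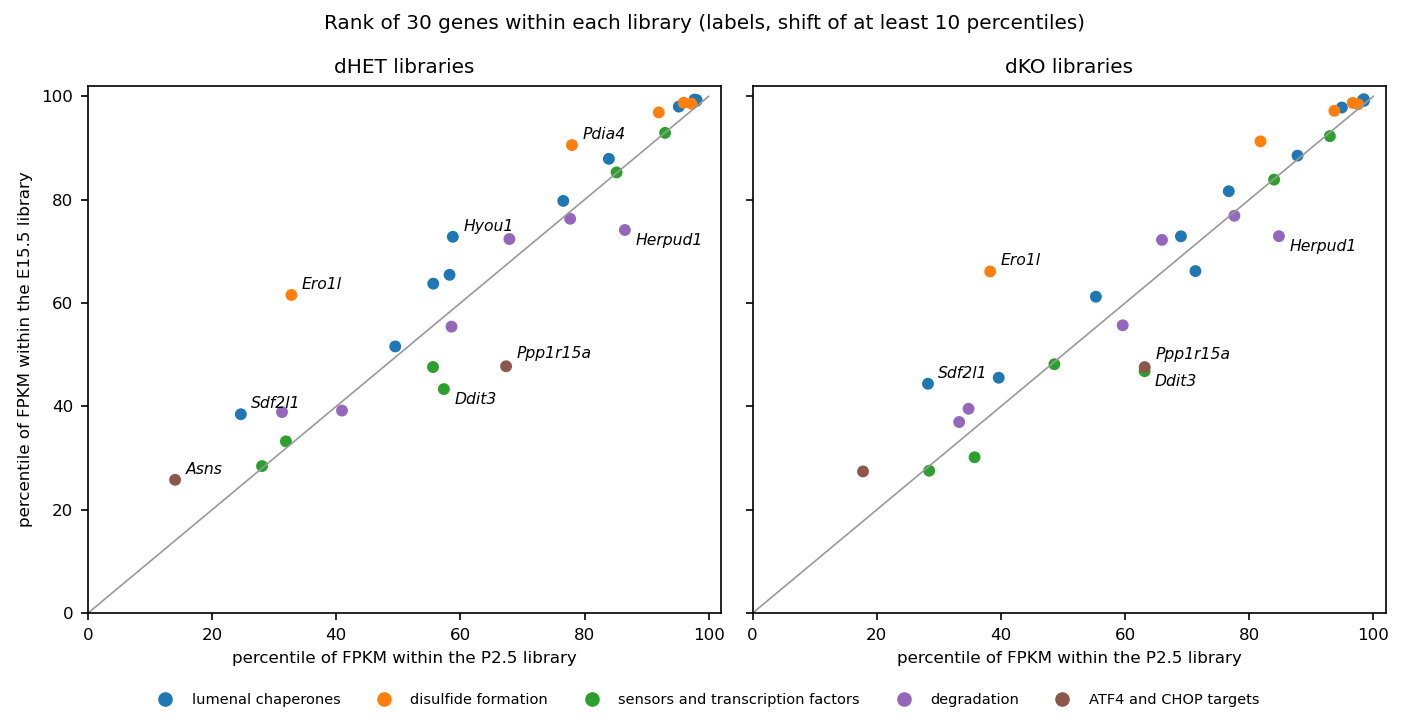
Percentile of each gene's FPKM among the counted genes of its library at P2.5 (x axis) and E15.5 (y axis), for the dHET libraries left and the dKO libraries right, coloured by role, with the line of equal rank. Ero1l (32.8 and 61.6 in dHET) lies far above the line, and Ppp1r15a (67.4 and 47.8), Ddit3 and Herpud1 lie below it in both panels.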

How the data were processed

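The deposited tables give FPKM per gene and library, computed by the authors, with TopHat, Bowtie, Cufflinks and the build mm9 named in the submitters' processing notes without versions. The deposited tables also hold the authors' log2 fold change, test statistic, p-value and q-value per gene. The E15.5 fold change is control over dKO, per the file headers, and its sign was turned. Displaced entries, 86 per stage, were realigned on their position column. The sources used here give neither the scaling, nor the strand setting, nor how multiply mapping reads were handled. Starts were counted from 0 in the tables, so 1 was added. Depth in fragments is unknown, and the dKO scaling total was 1.12 times that of dHET at P2.5 and 1.20 times at E15.5, from the spacing of low FPKM values.

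Changes used a pseudocount of 1 and genes whose status was OK or NOTEST (too little data to test), with at least 1 FPKM in any of the 4 libraries. Genes were called at 1.5-fold, and 1.2-fold is described beside it. No test was made, since each group has 1 library. The calculation was tested on simulated data. Copies elsewhere in the genome were sought for the named genes only, with minimap2 2.31-r1302, at 95% identity over at least 100 bases. Python 3.11.15, pandas 2.3.3, numpy 2.4.6 and scipy 1.17.1 were used. The named genes and the other lists were chosen with earlier results of these data known. Of each other list the 2 genes with the largest absolute change per stage may be named, and any marker. Gpt2 and Tmx3 lie outside this rule and were named after their values were seen. Alternatives were other pseudocounts, filters, status flags and scalings and an adjustment for GC content and length. Another status flag kept Myh6 (P2.5) and Myh7 (E15.5) out of the marker sums.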

Additional observations from a re-analysis of the deposited data

Results flagged for a closer look

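For 12 of the 30 genes the change lay on opposite sides of 0 at the 2 stages, against 37.3% of the 12098 genes counted at both, and these differences were not tested. The P2.5 change minus the E15.5 change, on the log2 scale, was 0.51 for Hyou1, 0.38 for P4hb, 0.34 for Eif2ak3, 0.21 for Edem1, 0.20 for Atf4, 0.16 for Dnajc3, 0.15 for Canx, 0.13 for Syvn1, 0.11 for Xbp1 and 0.10 for Ern1, all higher in dKO at P2.5 and lower at E15.5. It was -0.21 for Atf6 and -0.21 for Derl2, which were lower in dKO at P2.5 and higher at E15.5. After rescaling the libraries to the same sum, Atf4, Canx, Dnajc3, Edem1, Ern1, Syvn1 and Xbp1 lay below 0 at P2.5 too, so the opposite directions of these 7 depend on the scaling. Hyou1 and Syvn1 lay above 0 at E15.5 after centring on the median of all genes.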

How the results depend on the processing

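The 9 other settings left every change of a single counted gene within its implied standard error of the reported value, at both stages (262 values each). For the filters and status flags this was fixed in advance, since they alter which genes are counted and not a gene's change. Centring moved every gene by the same amount, -0.062 at P2.5. Only the other pseudocounts, the rescaling and the adjustment could therefore move single genes apart. For genes of higher FPKM the rescaling at P2.5 was also close to a common shift, with Hsp90b1 from 0.63 to 0.46 and Canx from 0.06 to -0.11. The smallest implied standard error there was 0.27, so staying within it was largely fixed in advance too. Even so, the rescaling turned the sign of 9 of the 30 genes at P2.5. At P2.5 the number of the 30 genes at least 1.5-fold higher was 2 as reported, 1 with a pseudocount of 5 and 1 (Hsp90b1 in both) once GC content and length were adjusted for. It was 0 after rescaling each library to a sum of 1000000 and 0 after centring on the median of all genes. Rescaling also moved the median change at P2.5 to 0.041 and the number above 0 to 15. Over the settings, the median of the genes at P2.5 exceeded that of all genes by 0.068 to 0.19, and at E15.5 the distance lay between -0.00080 and 0.019. At 1.2-fold, rescaling left 3 genes higher and 4 lower at P2.5, against 11.5% and 26.7% of all genes, where 12 and 1 were reported. No paired analysis was possible because each group has 1 library. For the same reason no library could be left out, no spread between animals is known, and the intervals cover the authors' model of 2 libraries only. Where such an interval includes 0, the direction of the gene's difference was not resolved by these libraries, even under that model.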

Other observations

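Chaperones outside the ER had another pattern over the stages. At E15.5, 22 of 25 counted cytosolic chaperones lay below 0, with a median change of -0.15, against 52.2% of all counted genes below 0, and none of the 25 passed 1.5-fold. Hspa8, the constitutive HSP70, had 30.7 FPKM (dHET) against 24.3 (dKO), a change of -0.32, and Stip1, which passes clients from HSP70 to HSP90, had 62.3 and 49.0, a change of -0.34. At P2.5 the same list had a median of 0.12, with 17 of 25 above 0 against 60.2% of all genes, Hspa8 at 0.23 and Stip1 at 0.02. After rescaling each library to the same sum its median was -0.052, with 10 of 25 above 0 against 36.6%, and Stip1 was at -0.16. Of 16 mitochondrial chaperones and proteases 14 lay below 0 at E15.5, with a median of -0.043, and 12 lay above 0 at P2.5, with a median of 0.16 (8 of 16 and -0.0099 after rescaling). Both P2.5 medians, like the 0.18 of the 30 genes, lay above the 0.062 of all genes. After rescaling they still lay above that of all genes, -0.093. Among the mitochondrial genes Lonp1, a protease of the matrix, had 39.0 and 57.7 FPKM at P2.5, a change of 0.55. Hspd1, the matrix chaperonin, had 57.8 and 81.6, a change of 0.49. Copies elsewhere in the genome were not sought for these cytosolic and mitochondrial genes, Hspa8 and Hspd1 included.

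The value for Ddit3 had the widest error of the set. In the authors' deposited table its implied standard error at P2.5 is 0.67, whereas the other 29 genes lie between 0.27 and 0.47, and its fold change of 0.33 equals that of the scarce Ero1lb. For both genes the ratio of the 2 libraries matches 17 to 24 fragments, within 1e-05 of the ratio. The ratio of Herpud1, whose implied standard error in the authors' deposited table is 0.28, likewise matches 11 to 12, so such a match does not mark a gene with few fragments.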
